A study of Mus musculus with 11 samples.

Results

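Kupffer cells, the resident macrophages of the liver, line the sinusoids and clear bacteria, aged red cells and dying cells from portal blood. In mice a small set of surface and secreted proteins marks them, while other genes are shared by macrophages of every tissue. Circulating monocytes can enter the liver and take on part of this programme, so Kupffer, pan-macrophage and monocyte genes are read side by side. The 10 genes described here were taken by name from the gene count table: Clec4f, Timd4, Marco, Cd5l and Vsig4 as Kupffer cell genes, and Emr1, Cd68, Lyz2, Csf1r and C1qa as genes of macrophages in general. Emr1 is the table's symbol for Adgre1, which encodes the F4/80 antigen. The members are 10 of the 43346 genes in the table, and 10 of the 10 passed the low count filter that left 17610 genes to be tested.

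Liver RNA was sequenced from mice of the FVB/NJ strain with hepatocellular cancer (HCC) brought on by MET and β-catenin expression, and the series asked how such tumours respond to anti-PD-1, an antibody that blocks an inhibitory receptor of T cells. The libraries fall into 6 labelled responder, 4 labelled non-responder and 1 whose response label reads non treatment and is called untreated here, although its treatment label, like all the others, names anti-PD-1. Every library, the untreated one included, came from a liver with the same induced cancer, so there is no tumour-free liver among them. The labels give neither the driver of the transgenes, the age or sex of the mice, the dose or time of treatment, nor whether a piece held tumour or surrounding liver. Nothing in the labels says that libraries of a group came from separate animals, so a p-value here is relative to the variation among libraries, which may be technical. Gene counts summed to between 17876515 and 40565708 in responders, to 25542066 to 39941835 in non-responders, and the untreated library had 49884800. Levels are CPM (counts scaled to a common library size) after TMM scaling over the 11 libraries. Non-responder replicate 1 had its counts shifted toward the 3′ ends of genes, with a log2 index of later over earlier exons of 1.09 against -0.15 to 0.05 in the other libraries, so results are given with and without it. Hepatocyte markers summed to 65680 to 81880 CPM in responders, 97260 to 121400 CPM in non-responders and 67410 CPM in the untreated library, and 1 of the 6 markers, Apoa1, passed the test described below.

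No macrophage member was called higher or lower in responders than in non-responders. With edgeR's quasi-likelihood test and Benjamini-Hochberg adjustment over all genes tested, 0 of 10 members passed an adjusted p of 0.05, where 9.93% of all genes passed in either direction, 4.11% as higher and 5.82% as lower in responders. At an unadjusted p under 0.05 the count was 0 as well, and DESeq2, limma-voom and limma-voom with quality weights called 0. For 10 of 10 members the CPM ranges of responders and non-responders overlapped, where the ranges of 11.3% of all genes did not. The members' median log2 fold change, responder over non-responder, was 0.20, with 8 positive and 2 negative, against -0.02 over all genes tested. Without non-responder replicate 1 the members' median was -0.10, with 3 positive and 7 negative, against 0.00 over all genes, and again 0 of 10 passed, where 9.6% of all genes did. In bulk tissue, fewer macrophages and less of a transcript per macrophage cannot be told apart.

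What varied was the library. Responder replicate 3 had the highest level of 10 of 10 members, non-responder replicate 1 the lowest of 10 and responder replicate 6 the second lowest of 10. Summed over the members, the 6 responders had 305.8, 494.6, 675.1, 337.2, 339.0 and 201.9 CPM in replicate order. The 4 non-responders had 101.5, 467.6, 447.0 and 417.3 CPM, and the untreated library had 289.2 CPM. Responders thus lay on both sides of the non-responders other than replicate 1, which sat close together. The coefficient of variation of a member within the 6 responders lay between 29.04% for Clec4f and 147.7% for Marco, against 4.71% to 21.1% among the 3 non-responders left without replicate 1. No responder was left out in this comparison. Over all 4 non-responders Clec4f had an SD of 39.9 CPM around a mean of 81.5 CPM, against 28.98 CPM around 99.8 CPM in responders. For Marco the SD was 1.78 CPM around 3.40 CPM in non-responders and 17.6 CPM around 11.9 CPM in responders. For Emr1 it was 8.52 CPM around 13.7 CPM and 9.06 CPM around 14.8 CPM, in the same order. Vsig4 had 10.8 CPM around 19.7 CPM and 7.03 CPM around 22.4 CPM, and Lyz2 14.4 CPM around 41.05 CPM and 20.8 CPM around 48.05 CPM. With all 4 non-responders, neither group was thus the more variable for every member.

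**Figure D1:**
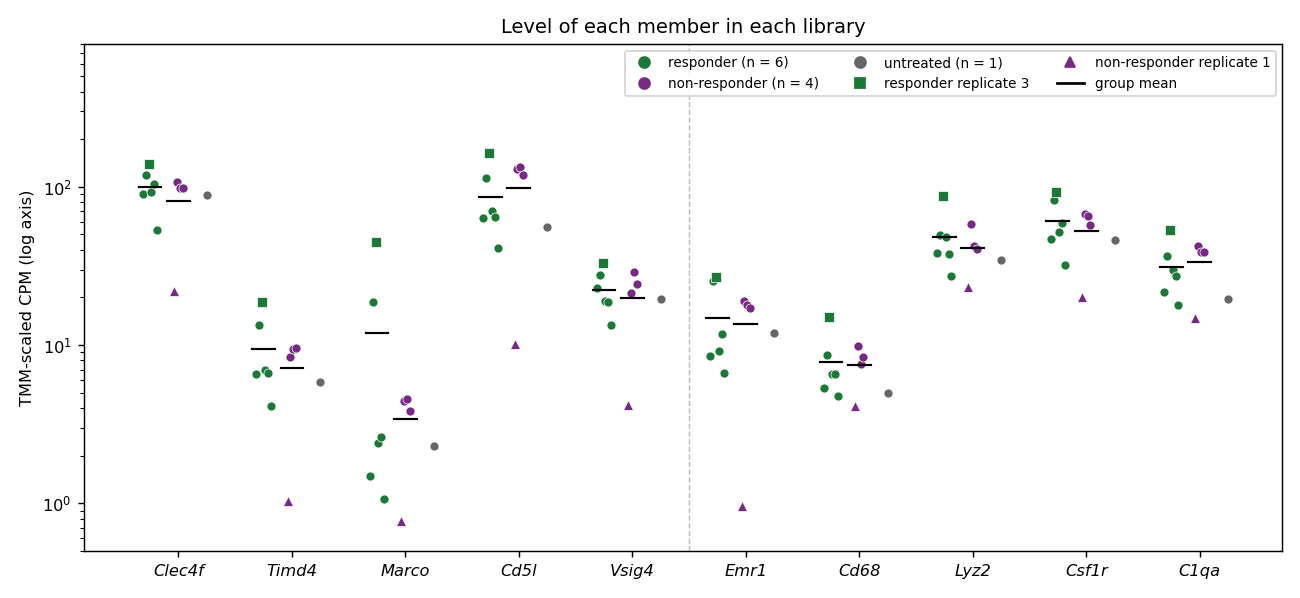
Level of each member in each library, in TMM-scaled CPM on a log axis; Kupffer cell genes are left of the dashed line and pan-macrophage genes right of it, and bars are group means. Responder replicate 3 (squares) is the highest library and non-responder replicate 1 (triangles) the lowest for every member, and the groups overlap for every member.

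**Figure D2:**
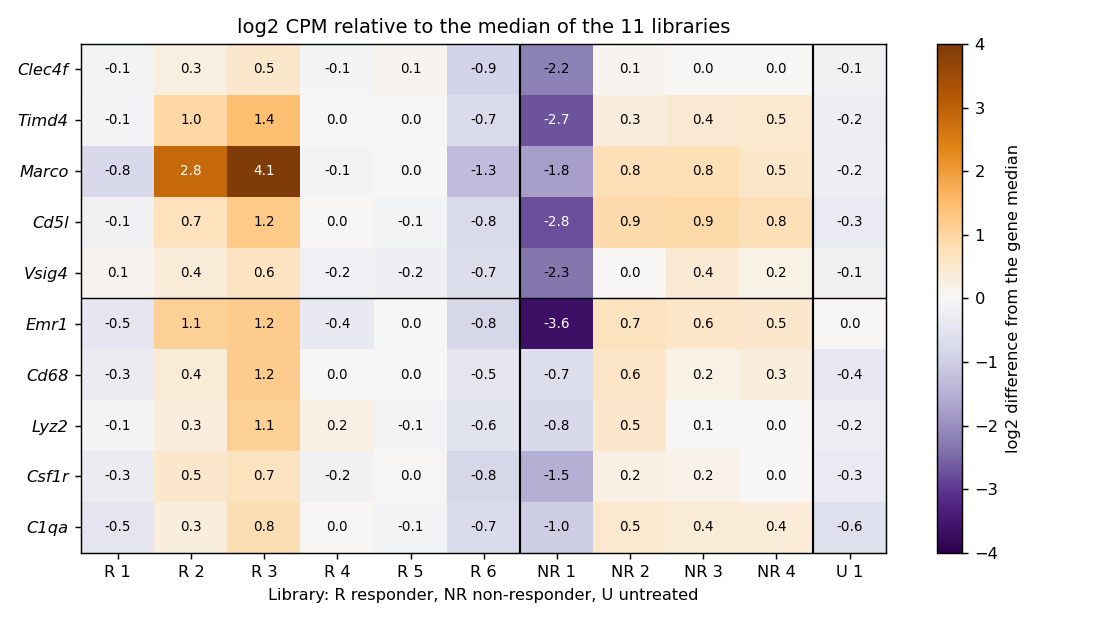
Log2 CPM of each member in each library minus that gene's median over the 11 libraries, with libraries in columns. Responder replicate 3 is above and non-responder replicate 1 below the median for every member, and the largest departures are those of Marco in responder replicate 3 and of Emr1 in non-responder replicate 1.

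The DNA just before the start site is shown for 5 of the members as a description of sequence. Whether it bears on their shared movement across libraries was not tested. RefSeq start sites (GRCm38.p6) were used for 7 of the 10 members. The 250 bases before each start were searched on both strands for GAGGAA, a core recognised by PU.1, the factor that specifies the myeloid lineage, and matches are in capitals (TTCCTC marks a match on the opposite strand). The motif was present in 4 of the 7 windows, those of Marco, Cd5l, Vsig4 and Cd68, where 23.2% of 32851 promoters of the same length held it. Marco had it 146 bases before the start, Cd5l 66, Cd68 225, and Vsig4 had it at both 155 and 53. The Clec4f window held no match and is printed for comparison, and the Timd4 and Lyz2 windows held none either. CACGTG, bound by MITF and TFE factors, and the spaced direct repeat bound by liver X receptors were in 0 of 7 windows, where 6.02% and 0.0152% of all promoters held them. The RefSeq start of Clec4f lies inside the gene bounds given below, so its window overlaps the first bases of the gene. Windows are written 5′ to 3′ toward the gene, at chr1:120505025-120505274 (minus strand) for Marco, chr3:87357631-87357880 (plus strand) for Cd5l, chrX:96293439-96293688 (minus strand) for Vsig4, chr11:69666171-69666420 (minus strand) for Cd68 and chr6:83656117-83656366 (minus strand) for Clec4f.
Marco: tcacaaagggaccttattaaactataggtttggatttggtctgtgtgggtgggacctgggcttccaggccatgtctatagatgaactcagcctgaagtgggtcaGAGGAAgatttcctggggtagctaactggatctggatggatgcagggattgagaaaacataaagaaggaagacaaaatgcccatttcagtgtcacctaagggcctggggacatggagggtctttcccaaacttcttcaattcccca
Cd5l: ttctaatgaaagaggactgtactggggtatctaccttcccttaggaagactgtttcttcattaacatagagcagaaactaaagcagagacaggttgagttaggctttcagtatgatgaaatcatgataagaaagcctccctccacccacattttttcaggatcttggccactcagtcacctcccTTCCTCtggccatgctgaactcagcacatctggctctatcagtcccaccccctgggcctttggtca
Vsig4: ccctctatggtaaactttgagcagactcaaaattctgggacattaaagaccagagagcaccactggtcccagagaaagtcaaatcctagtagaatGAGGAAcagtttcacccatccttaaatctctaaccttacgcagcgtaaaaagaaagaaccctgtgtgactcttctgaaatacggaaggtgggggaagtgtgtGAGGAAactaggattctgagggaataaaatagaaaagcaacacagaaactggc
Cd68: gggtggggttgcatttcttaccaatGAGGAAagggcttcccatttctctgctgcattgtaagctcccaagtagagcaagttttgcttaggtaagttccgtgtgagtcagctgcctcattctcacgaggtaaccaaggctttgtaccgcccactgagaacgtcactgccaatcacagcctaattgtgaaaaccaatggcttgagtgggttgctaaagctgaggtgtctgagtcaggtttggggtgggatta
Clec4f: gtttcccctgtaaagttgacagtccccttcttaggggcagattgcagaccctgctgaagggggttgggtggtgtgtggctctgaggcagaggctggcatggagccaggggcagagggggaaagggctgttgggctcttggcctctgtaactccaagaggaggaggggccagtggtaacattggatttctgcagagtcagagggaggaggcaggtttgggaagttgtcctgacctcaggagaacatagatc
A match describes letters in a window and was not tied to any level measured here.

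Clec4f encodes a C-type lectin that in mouse liver marks Kupffer cells (chromosome 6, 83644542 to 83656187 in mm10, ENSMUSG00000014542). Its level ran from 53.2 to 139.2 CPM in responders, with a median of 98.8 CPM. Non-responders had 21.9, 106.8, 98.7 and 98.4 CPM, and the untreated library 89.3 CPM. Responders spread around the 3 close non-responder values, with 2 above them and 3 below. Clec4f averaged 99.8 ± 28.98 CPM in responders and 81.5 ± 39.9 CPM in non-responders (SD, n = 6 and 4). The log2 fold change was 0.29 ± 0.38 (SE; 95% interval -0.59 to 1.18; edgeR adjusted p = 0.668), and -0.02 when non-responder replicate 1 was left out.

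Timd4 encodes TIM-4, a receptor for phosphatidylserine through which resident macrophages take up dying cells (chromosome 11, 46810800 to 46844332, ENSMUSG00000055546). Responders had 4.12 to 18.7 CPM, with a median of 6.80 CPM. Non-responders had 1.03, 8.43, 9.41 and 9.58 CPM and the untreated library 5.85 CPM. Only responder replicates 2 and 3 lay above the non-responders, and the other 4 lay below the non-responders other than replicate 1. Responder over non-responder, the log2 fold change of Timd4 was 0.40 ± 0.56 (SE; 95% interval -0.88 to 1.68; edgeR adjusted p = 0.689), and 0.04 when non-responder replicate 1 was left out.

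Vsig4 encodes CRIg, a complement receptor that binds C3 fragments on blood-borne particles (chromosome X, 96247203 to 96293438, ENSMUSG00000044206). It had 13.4 to 33.1 CPM in responders, with a median of 20.9 CPM. It had 4.21, 21.3, 28.9 and 24.5 CPM in non-responders and 19.4 CPM in the untreated library. Only responder replicate 3 exceeded every non-responder. For Vsig4 the log2 fold change was 0.18 ± 0.42 (SE; 95% interval -0.79 to 1.16; edgeR adjusted p = 0.819), and -0.15 when non-responder replicate 1 was left out.

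Cd5l encodes AIM, a secreted protein made by tissue macrophages that also binds to IgM in blood (chromosome 3, 87357881 to 87371073, ENSMUSG00000015854). Responders had 41.2 to 164.5 CPM, with a median of 67.2 CPM. Non-responders had 10.2, 129.9, 133.9 and 119.0 CPM and the untreated library 55.5 CPM. Leaving replicate 1 aside, non-responders lay above 5 of 6 responders, and responder replicate 3 above all of them. The log2 fold change was -0.19 ± 0.59 (SE; 95% interval -1.54 to 1.17; edgeR adjusted p = 0.872). Without non-responder replicate 1 it was -0.56 ± 0.37 (edgeR adjusted p = 0.359), and non-responders then averaged 127.6 ± 7.70 CPM (SD, n = 3) against 86.3 ± 45.2 CPM in responders (SD, n = 6).

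Marco encodes a scavenger receptor with a collagen-like stalk that binds bacteria and particles (chromosome 1, 120474538 to 120505024, ENSMUSG00000026390). It had the widest spread of the members. Responders in replicate order had 1.49, 18.8, 45.0, 2.41, 2.62 and 1.07 CPM. Non-responders had 0.775, 4.43, 4.59 and 3.82 CPM and the untreated library 2.29 CPM. Responder replicates 2 and 3 stood above every other library, while the other 4 responders lay below the non-responders other than replicate 1. The raw counts behind these levels were 558 and 1895 in those 2 responders, 37 to 97 in the other 4, 21 to 179 in non-responders and 112 in the untreated library. The highest responder exceeded the lowest 42.2-fold, against 2.47-fold to 4.55-fold for the other members. The log2 fold change was 1.80 ± 1.12 (SE; 95% interval -0.78 to 4.39; edgeR adjusted p = 0.334), with a standard error larger than that of 99.66% of the genes tested. It was 1.49 without non-responder replicate 1 and 0.62 without responder replicate 3, and no single library left out brought Marco past the threshold (lowest edgeR adjusted p 0.235).

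Emr1, the gene of the F4/80 antigen used to stain mouse macrophages, lies on chromosome 17 (57358686 to 57483529, ENSMUSG00000004730). Responders had 6.62 to 27.1 CPM, with a median of 10.5 CPM. Non-responders had 0.959, 18.9, 17.8 and 17.1 CPM and the untreated library 11.9 CPM. Non-responder replicate 1 was the farthest below the rest here, and responder replicates 2 and 3 were above every non-responder. Emr1 had a log2 fold change of 0.11 ± 0.66 (SE; 95% interval -1.40 to 1.62; edgeR adjusted p = 0.934), and -0.27 when non-responder replicate 1 was left out.

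Csf1r encodes the receptor for CSF1 and IL-34, on whose signal Kupffer cells depend (chromosome 18, 61105572 to 61132149, ENSMUSG00000024621). Responders had 32.1 to 92.3 CPM, with a median of 55.3 CPM. Non-responders had 20.2, 67.3, 65.2 and 57.5 CPM and the untreated library 45.9 CPM. The groups overlapped, with responder replicates 2 and 3 again on top. For Csf1r the log2 fold change came to 0.21 ± 0.35 (SE; 95% interval -0.60 to 1.02; edgeR adjusted p = 0.743), and -0.06 when non-responder replicate 1 was left out. Exons of Csf1r share 871 of 4701 bases with Hmgxb3, so some of its counts could belong to that gene.

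C1qa encodes the A chain of complement C1q, which macrophages make (chromosome 4, 136895917 to 136898803, ENSMUSG00000036887). Responders had 18.0 to 53.0 CPM, with a median of 28.7 CPM. Non-responders had 14.9, 42.2, 38.8 and 38.6 CPM and the untreated library 19.6 CPM. As for Cd5l, 5 of 6 responders lay below the non-responders other than replicate 1. The log2 fold change was -0.12 ± 0.33 (SE; 95% interval -0.88 to 0.65; edgeR adjusted p = 0.858), and -0.36 when non-responder replicate 1 was left out (edgeR adjusted p = 0.452). The other chains kept near proportion to C1qa across libraries. The CPM ratio of C1qb to C1qa was 0.778 to 1.03 outside non-responder replicate 1, where it was 0.695, and that of C1qc to C1qa was 0.733 to 1.02 outside it and 0.474 in it.

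Cd68 encodes macrosialin, a glycoprotein of macrophage lysosomes (chromosome 11, 69664213 to 69666153, ENSMUSG00000018774). It had 4.74 to 15.0 CPM in responders, with a median of 6.56 CPM. It had 4.09, 9.90, 7.57 and 8.36 CPM in non-responders and 4.99 CPM in the untreated library. Here non-responder replicate 1 lay near responder replicate 6, as it did for Lyz2 (23.2 and 27.5 CPM) and C1qa (14.9 and 18.0 CPM). Cd68 had a log2 fold change of 0.06 ± 0.33 (SE; 95% interval -0.70 to 0.83; edgeR adjusted p = 0.924), and -0.14 when non-responder replicate 1 was left out.

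Lyz2 encodes lysozyme M, made by macrophages and also by neutrophils (chromosome 10, 117277334 to 117282274, ENSMUSG00000069516). It had 27.5 to 87.2 CPM in responders, with a median of 43.2 CPM. It had 23.2, 58.4, 42.0 and 40.6 CPM in non-responders and 34.5 CPM in the untreated library. Responder replicate 3 stood alone at the top. Lyz2 had a log2 fold change of 0.23 ± 0.31 (SE; 95% interval -0.50 to 0.95; edgeR adjusted p = 0.687), and 0.03 when non-responder replicate 1 was left out. Lyz2 shares 195 of its 1267 stretches of 50 bases with Lyz1, so its counts may include some of that gene. Neutrophil markers summed to 2.66 to 8.35 CPM in responders and 2.50 to 6.49 CPM in non-responders, and their part in Lyz2 was not tested.

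**Figure D3:**
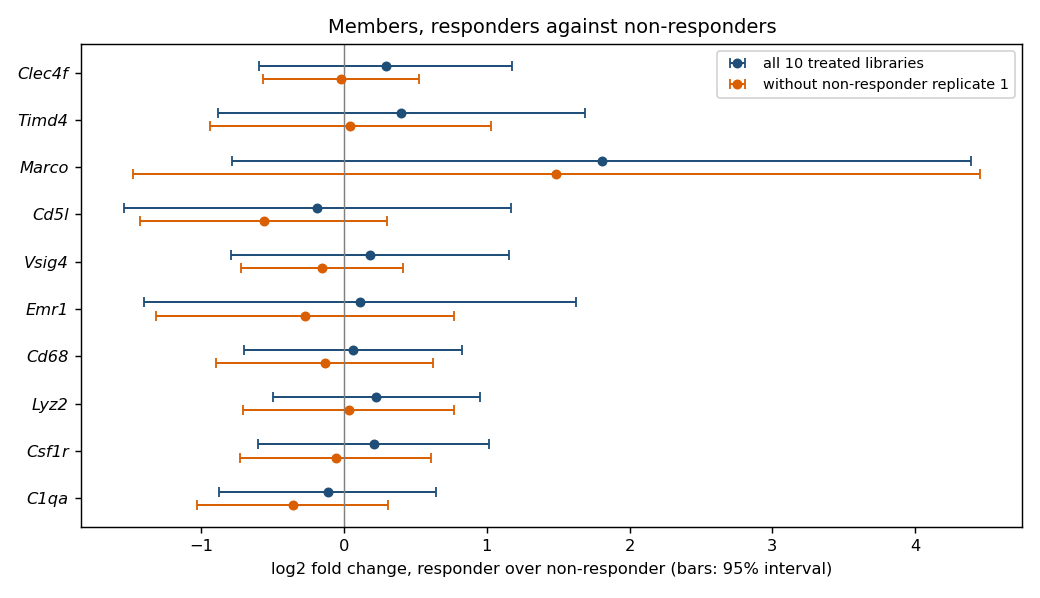
Log2 fold change of each member, responder over non-responder, with its 95% interval, from all 10 treated libraries and without non-responder replicate 1. Every interval spans 0, the interval of Marco is the widest, and 5 members move from a positive to a negative estimate when the library is left out.

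The intervals bound what these libraries can show. For Cd68 the interval of the log2 fold change with all libraries was -0.70 to 0.83, for Lyz2 -0.50 to 0.95 and for C1qa -0.88 to 0.65. For the other 7 members the interval reached past 1 on at least one side, so a doubling cannot be told from no change for them at this number of libraries. All these bounds are from the fit with every treated library. Without non-responder replicate 1 the log2 fold changes were -0.135 ± 0.33 for Cd68, 0.03 ± 0.32 for Lyz2 and -0.36 ± 0.29 for C1qa (SE), so the bounds do not carry over to that fit.

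Set against gene length, the members spanned a wide range of levels. The median over the 11 libraries in CPM per kilobase was 39.8 for Clec4f, 34.4 for Cd5l, 32.03 for Lyz2 and 28.8 for C1qa. It was 14.4 for Vsig4 and 11.8 for Csf1r, then 5.24 for Cd68, 3.66 for Emr1, 3.18 for Timd4 and 1.36 for Marco. Neighbours in this order were not all separate. Clec4f was above Cd5l in 6 of 11 libraries and Emr1 above Timd4 in 7, so those pairs changed places, while C1qa exceeded Vsig4, and Csf1r exceeded Cd68, in 11 of 11.

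Exon counts placed the low values of non-responder replicate 1 beside its 3′ shift. The last exon held 43.3% of the exon counts of Emr1 in that library and 4.31% to 10.6% in the others. For Marco it held 56.0%, against 5.97% to 21.3%. For Clec4f the share was 44.7%, against 11.7% to 17.8%. The shift was smaller for genes whose counts sit in the last exon anyway, with 92.2% against 70.5% to 78.7% for C1qa, and for Timd4, with 41.7% against 26.9% to 40.4%. Responder replicate 6 had the next highest share for 9 of 10 members, the exception being Timd4. Counted over the last exon alone, non-responder replicate 1 was lowest for 7 of 10 members, and responder replicate 3 was highest for 9 of 10. The part of the shift in the low levels was not tested beyond these values.

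**Figure D4:**
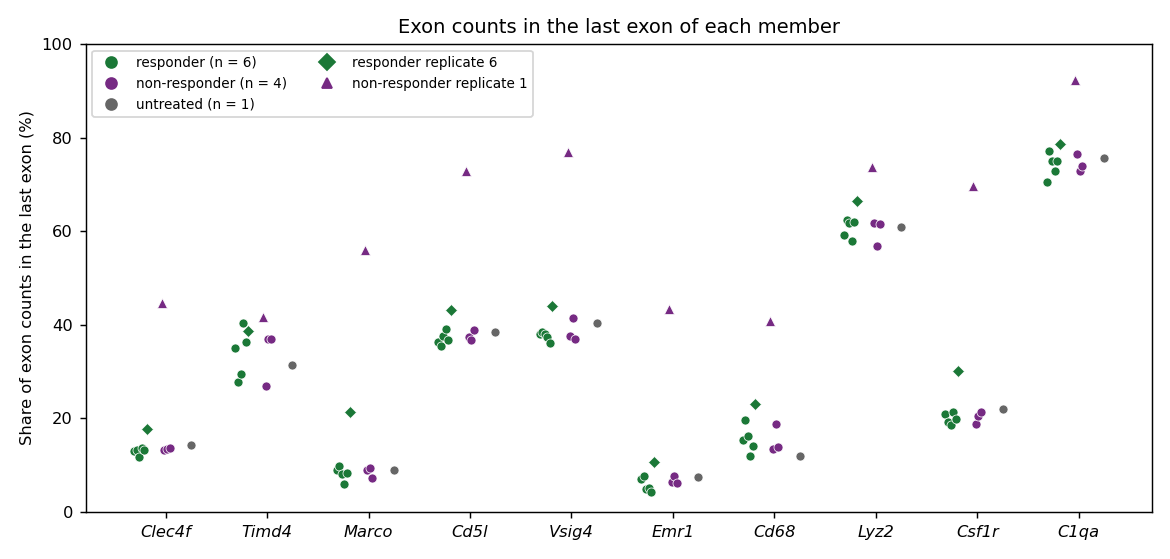
Share of each member's exon counts that fell in its last exon, in percent, by library. Non-responder replicate 1 (triangles) is highest for every member, and responder replicate 6 (diamonds) is next for all but Timd4.

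Within a library, the members can be set against Emr1, so that a level shared by all macrophage genes drops out. The 3′ shift of non-responder replicate 1 need not drop out. Emr1 had 26 counts there, with 43.3% of its exon counts in the last exon. The log2 ratio of Marco to Emr1 was -2.63 to 0.73 in responders, with a median of -2.05. It was -2.16 to -0.31 in non-responders (-2.16 to -1.96 without replicate 1) and -2.37 in the untreated library. The values of responder replicates 2 and 3 were -0.44 and 0.73, so Marco stood higher relative to Emr1 there than in the other 4 responders. The log2 ratio of Clec4f to Emr1 was lowest in those 2 responders, at 2.21 and 2.36, against 3.01 to 3.40 in the other 4. It was 2.47 to 4.51 in non-responders (2.47 to 2.53 without replicate 1) and 2.91 in the untreated library. For the 9 members so compared, the groups overlapped with and without non-responder replicate 1.

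Across the 11 libraries, Pearson's r of log2 CPM between 2 members was 0.702 to 0.977 over the 45 pairs, with a median of 0.878, and 0.731 to 0.969 without non-responder replicate 1. All pairs share their libraries and the scaling, and no test was made. The genes outside the set whose log2 CPM ran most like Clec4f over the 11 libraries were Lilra5, Cd38, Kcnj10, Ccr3, Adam23 and P2ry13, with r of 0.989, 0.981, 0.979, 0.978, 0.977 and 0.977. Without non-responder replicate 1 these fell to between 0.896 and 0.949. The 6 most like Clec4f were then Slc43a2, Prkcb, Pla2g7, Lilra5, Cd300e and Cd38, with r of 0.973 down to 0.926. Those most like C1qa over the 11 libraries were Itgb2, Axl, C1qb, Ctss, Sdc3 and Tlr12, with r of 0.986, 0.976, 0.975, 0.970, 0.970 and 0.969. These held at 0.959 to 0.981 without non-responder replicate 1. The 6 most like C1qa were then Itgb2, Slfn2, C1qb, C1qc, Hcls1 and Ifi204, with r of 0.981 down to 0.972.

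The single untreated library lay within the range of the treated libraries for 10 of 10 members, where 16.1% of all genes lay outside it. Its level was below the treated median for 10 of 10 members, at 0.591 of it for C1qa, 0.602 for Cd5l and 0.906 for Clec4f. For 7 members, among them Clec4f, Timd4 and Csf1r, only responder replicate 6 and non-responder replicate 1 were lower. With 1 library there is no replicate check, and no test was made.

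Few other genes of the Kupffer programme passed. Of 15 further Kupffer genes, 1 was called higher in responders and 0 lower, where 4.11% of all genes were called higher, and the list's median log2 fold change was 0.20, with 0.18 without non-responder replicate 1. Id3, a regulator of Kupffer cell development, averaged 71.2 ± 20.7 CPM in responders and 32.9 ± 12.7 CPM in non-responders (SD, n = 6 and 4; log2 fold change 1.11 ± 0.27 SE; edgeR adjusted p = 0.0314). It missed the threshold when any one of 6 libraries was left out, with an edgeR adjusted p of 0.0721 without non-responder replicate 1 and at most 0.0978. Slc40a1, the iron exporter ferroportin, averaged 275.7 CPM in responders and 135.8 CPM in non-responders and did not pass (edgeR adjusted p = 0.112). Nr1h3, the liver X receptor alpha gene on which Kupffer identity depends, did not pass, at 0.18 on the log2 scale (edgeR adjusted p = 0.265). These genes did not all follow the members. Nr1h3 had 95.4 CPM in non-responder replicate 1, and Id3 was lowest in non-responder replicate 2, at 21.6 CPM. Slc40a1, like the members, was highest in responder replicate 3 (402.9 CPM) and lowest in non-responder replicate 1 (44.4 CPM). Which cells carried these 3 transcripts was not tested.

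Several genes of lipid-associated macrophages, a state described around dying cells and fat, were lower in responders. This list, like the others, was chosen with earlier results of these data known, so its counts are a description and not independent support. Of 12 genes 5 passed, all lower, and 12 of 12 fold changes were negative, with a median log2 fold change of -1.12 against -0.02 over all genes, of which 5.82% were called lower. Cd9, a tetraspanin, averaged 25.0 ± 4.14 CPM in responders and 55.6 ± 14.6 CPM in non-responders (SD, n = 6 and 4; log2 fold change -1.16 ± 0.18 SE; edgeR adjusted p = 0.0147), and it passed whichever single library was left out. Lpl, lipoprotein lipase, averaged 31.7 CPM in responders and 129.9 CPM in non-responders (log2 fold change -2.04; edgeR adjusted p = 0.0199). Fabp5, a fatty acid carrier, and Mmp12, a macrophage elastase, had log2 fold changes of -1.42 and -1.31 (edgeR adjusted p = 0.0205 and 0.0218). These 4 also passed without non-responder replicate 1, while Cd63, a lysosomal tetraspanin, passed with it at -2.83 (edgeR adjusted p = 0.0475; -3.48 without responder replicate 4) and not without it (0.107). The list's count was 1 without responder replicate 2 and 1 without non-responder replicate 2, and 3 without responder replicate 1 or 5. Trem2, the receptor that defines the state, had -0.57 and did not pass (edgeR adjusted p = 0.121), nor did Mmp14 with -0.77 (0.0515). The list summed to 101.5 to 191.5 CPM in responders, 229.5 to 617.5 CPM in non-responders and 109.5 CPM in the untreated library. The groups did not overlap in this sum. The CPM ranges of 11.3% of all genes did not overlap either, but that share is of single genes and not of sums. Trem2 averaged 1.41 CPM in responders and 2.10 CPM in non-responders, so it added little to the sum. Lpl alone had 14.3 to 49.8 CPM in responders and 63.1 to 244.9 CPM in non-responders. Cd9, Lpl, Fabp5 and Cd63 are not restricted to macrophages, and hepatocyte markers also had higher sums in non-responders than in responders. Those sums were mostly Alb, and the 6 hepatocyte markers did not move one way: Apoa1 passed at -1.11 (edgeR adjusted p = 0.0248), Alb had -0.60, and Ttr, Serpina1c and Cyp2e1 had 0.81, 0.92 and 0.44 and did not pass, with a list median of 0.18. Which cells carried the difference was not tested.

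Genes of monocyte-derived cells gave a smaller count. For this list and those that follow, the share of all genes called lower was 5.82% and higher 4.11%. Of 13 genes 12 were tested and 2 passed, both lower in responders, with a list median of -0.61. S100a6, a calcium-binding protein, and Vcan, the proteoglycan versican, had log2 fold changes of -2.33 and -3.64 (edgeR adjusted p = 0.0307 and 0.0319). Leaving out non-responder replicate 1 gave -1.29 for S100a6 (edgeR adjusted p = 0.0602) and -2.81 for Vcan (0.0742), both short of the threshold. S100a6 passed in 5 of the 10 fits that each left out 1 library, and Vcan in 4. In replicate order, non-responders had 11.95, 3.21, 2.03 and 1.55 CPM of S100a6, against 0.484 to 1.73 CPM in responders. For Vcan they had 8.34, 5.03, 0.436 and 0.649 CPM, against 0 to 0.674 CPM. Non-responder replicates 3 and 4 thus lay within the responder range of Vcan. Ccr2 and Cx3cr1, the chemokine receptors of the 2 monocyte classes, had -0.16 and -0.13 and did not pass, and Plac8 had -1.19 (edgeR adjusted p = 0.0508). Emr4, a relative of Emr1, had 0.43 and did not pass. The list summed to 12.3 to 34.0 CPM in responders, 21.6 to 43.4 CPM in non-responders and 13.8 CPM in the untreated library.

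Of 18 scavenger and phagocytic receptors 1 passed, with a list median of -0.09. Fcgr4, an activating IgG receptor, averaged 1.86 ± 1.26 CPM in responders and 4.81 ± 0.751 CPM in non-responders (SD, n = 6 and 4; log2 fold change -1.36 ± 0.38 SE; edgeR adjusted p = 0.0458). It passed in 2 of the 10 fits that each left out 1 library, and missed the threshold without non-responder replicate 1 (edgeR adjusted p = 0.0728). In that fit 2 others passed, Cd36, a fatty acid scavenger receptor (log2 change -1.12; edgeR adjusted p = 0.0213), and Clec4n, the dectin-2 gene (-1.24; 0.0367), which had -0.85 and -0.97 with all libraries. Stab1 and Mrc1, endocytic receptors that sinusoidal endothelium shares, had 0.32 and 0.52 and did not pass. Of 8 genes of the C1q chains and complement receptors 0 passed, with a median of -0.09, and Itgax, the CD11c gene, had the smallest p (log2 fold change -1.08, and -1.68 without responder replicate 3; edgeR adjusted p = 0.305 with all libraries). Of the 4 growth factor genes tested of 6 listed, 0 passed, with a median of -0.28. Csf1, a ligand of Csf1r, had 0.15, and Csf2ra and Csf2rb, receptor chains for GM-CSF, had -0.30 and -0.29.

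Of 14 lineage transcription factors 1 passed, with a median of 0.09. Klf4 passed at -1.23 on the log2 scale (edgeR adjusted p = 0.0483) and missed the threshold when non-responder replicate 1 was left out (0.0780). It passed in 3 of the 10 fits that each left out 1 library. Spi1, the gene of PU.1, had 0.08 and did not pass, nor did Bhlhe40 with 0.12 and Cebpb with -0.63, which was -0.01 without non-responder replicate 1. Of 20 lysosome genes 3 passed, all lower in responders, with a median of -0.12. Hexa, which encodes part of a lysosomal enzyme, had a log2 change of -1.50 (edgeR adjusted p = 0.0149), and Gusb, β-glucuronidase, had -0.50 (0.0483). Both also passed when non-responder replicate 1 was left out, though Hexa missed the threshold without non-responder replicate 2 and Gusb when any one of 8 other libraries was left out. The abundant lysosome genes Lamp1 and Ctsb had 0.19 and -0.17 and did not pass. Every cell has lysosomes, so these are not macrophage measures alone.

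Of 20 inflammatory genes 14 were tested and 2 passed, both lower in responders, with a median of -0.38. Cd40, a costimulatory receptor, averaged 1.18 ± 0.596 CPM in responders and 3.94 ± 1.27 CPM in non-responders (SD, n = 6 and 4; log2 fold change -1.73 ± 0.38 SE; edgeR adjusted p = 0.0225). It also passed when non-responder replicate 1 was left out (edgeR adjusted p = 0.0339), but missed without responder replicate 2, responder replicate 5 or non-responder replicate 2. Cxcl1, a neutrophil chemokine, had -1.24 (edgeR adjusted p = 0.0418) and missed without non-responder replicate 1 (0.104). It passed in 2 of the 10 fits that each left out 1 library. The interleukin genes Il18 and Il1a had 0.13 and 0.17 and did not pass. Of 15 regulatory genes 9 were tested and 1 passed, with a median of -0.16. Il1rn, the interleukin-1 receptor antagonist, averaged 3.58 ± 2.51 CPM in responders and 21.0 ± 13.7 CPM in non-responders (SD, n = 6 and 4; log2 fold change -2.54 ± 0.52 SE; edgeR adjusted p = 0.0209). It missed the threshold without responder replicate 2, responder replicate 5 or non-responder replicate 2. Lgals9 and Sirpa had 0.02 and -0.32 and did not pass. Of 7 iron recycling genes 0 passed, with a median of -0.03. The ferritin chain genes Fth1 and Ftl1 had -0.42 and 0.35, and Ftl1 passed without non-responder replicate 1 with 0.56 (edgeR adjusted p = 0.0338).

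Together the 11 lists beyond the members held 144 genes, of which 129 were tested and 16 passed, 1 higher and 15 lower in responders, where 9.93% of all genes passed, 4.11% as higher and 5.82% as lower. The count lower was 6 without responder replicate 1, 4 without responder replicate 2, 4 without responder replicate 5 and 1 without non-responder replicate 2. With the number in each library's title as a covariate, 0 of them passed; responders mostly have lower numbers than non-responders, and the labels do not say what the numbers stand for. Among the marker lists for other cells, 4 genes passed, all lower in responders. They were Lyve1, an endothelial hyaluronan receptor (-1.44; edgeR adjusted p = 0.0149), Apoa1, Klrb1c of natural killer cells (-3.11; 0.0268) and Slc4a1 of red cells (-2.05; 0.0199). Klrb1c had 0.959, 7.67, 0.667 and 0.948 CPM in non-responders, and without replicate 2 of them it had -1.52 and did not pass (edgeR adjusted p = 0.0870). Of the 7 endothelial markers 5 had a positive log2 fold change, with a list median of 0.29 and of -0.02 without non-responder replicate 1. They summed to 226.9 to 384.1 CPM in responders, 121.8 to 339.1 CPM in non-responders (302.5 to 339.1 CPM without replicate 1) and 322.4 CPM in the untreated library. Natural killer markers summed to 0.202 to 1.17 CPM in responders, 1.36 to 8.40 CPM in non-responders and 0.613 CPM in the untreated library. The groups did not overlap in this sum, while among single genes the CPM ranges of 11.3% did not overlap. In the highest sum, that of non-responder replicate 2, Klrb1c made up 7.67 CPM. The 3 tested markers did not move one way. Ncr1 had 0.13 (edgeR adjusted p = 0.886) and Eomes -0.94 (0.314), and neither passed. For stellate cells, cholangiocytes, T cells, B cells, neutrophils, dendritic cells and leukocytes in general 0 genes passed, and the summed ranges overlapped. No marker in these lists was at 0 in every library.

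**Figure D5:**
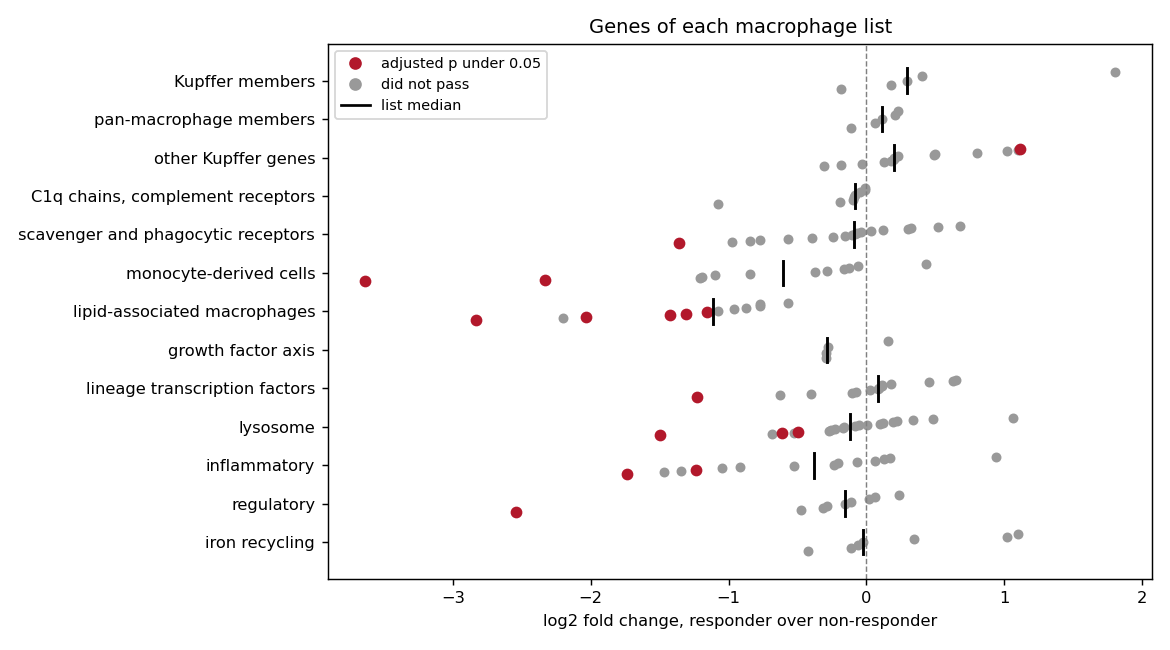
Log2 fold change, responder over non-responder, of each tested gene in the members' 2 groups and in the 11 other macrophage lists, with list medians as bars and genes past the threshold in red. The members lie near 0 apart from Marco, and the genes of lipid-associated macrophages lie wholly below 0.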

How the data were processed

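Counts per gene and per exon and RPKM values were made by the authors and deposited as tables of the whole series. The submitters' processing notes name FastQC and mm10, while the aligner and the counter are not stated there, in the labels or in the file headers. Per the labels' protocols, TRIzol RNA went into TruSeq libraries, and strand handling is not stated. The deposited RPKM values served only to check the counts, which made up 64.2% to 72.6% of the total that the RPKM values imply.

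Groups came from the response label and replicate numbers follow accession order. Counts were filtered with filterByExpr, scaled by TMM and tested with edgeR 4.0.16 (robust quasi-likelihood, R 4.3.3), 6 responders against 4 non-responders, with Benjamini-Hochberg adjustment over 17610 genes and a threshold of 0.05. The standard error is the log2 fold change over the root of F, and 95% intervals use t with 8 degrees of freedom. Alternatives included DESeq2 1.42.0 and limma 3.58.1. The procedure was tested on simulated data drawn independently for each gene, with no 3′-shifted library and no shared movement of genes. That test therefore does not bear on those features of these libraries. Correlations use log2 CPM with a prior count of 2. Promoter windows come from RefSeq.

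Members and lists were chosen with earlier results of these data known. Named genes are the members and, per macrophage list, up to 4 passing genes by smallest p (otherwise the smallest p) and the 2 highest in level; of the marker lists for other cells, those that passed. Ccr2, Cx3cr1, Trem2, Spi1, Cd36, Clec4n, Alb, Ttr, Serpina1c, Cyp2e1, Ncr1 and Eomes were added after their values were seen. Genes like Clec4f and C1qa are the 6 of highest r with a mean CPM of at least 1. A gene that the rule would name is not reported here.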

Additional observations from a re-analysis of the deposited data

Results flagged for a closer look

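Among 20 sets of values (10 members in responders and in non-responders), the gap between an extreme library and its neighbour exceeded Dixon's 95% critical value in 6, where chance flags about 1 in 20. In 5 of these, non-responder replicate 1 lay far below the other non-responders. It had 21.9 CPM of Clec4f, where the next non-responder had 98.4 CPM, and 1.03 CPM of Timd4, where the next had 8.43 CPM. It had 10.2 CPM of Cd5l, next to 119.0 CPM, 0.959 CPM of Emr1, next to 17.1 CPM, and 14.9 CPM of C1qa, next to 38.6 CPM. This is the library with the 3′ shift. In the sixth, responder replicate 3 had 87.2 CPM of Lyz2, where the next responder had 49.5 CPM. The sets are not independent, since members move together across libraries.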

How the results depend on the processing

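The 10 members stayed short of the threshold in every alternative run, with counts of members called of 0 to 0 when each library was left out in turn. Their direction was less stable. Leaving out each library gave log2 fold changes of 0.62 to 2.05 for Marco, 0.04 to 0.58 for Timd4 and -0.56 to -0.0013 for Cd5l, and ranges on both sides of 0 for the rest: -0.36 to 0.0236 for C1qa, -0.0217 to 0.46 for Clec4f, -0.0337 to 0.46 for Lyz2, -0.24 to 0.24 for Cd68, -0.27 to 0.31 for Emr1, -0.0595 to 0.36 for Csf1r and -0.15 to 0.42 for Vsig4. Cd5l was 0.23 by limma-voom. With quality weights in limma-voom Vsig4 was -0.11, Emr1 -0.19 and Cd68 -0.11, and by last exon counts Emr1 was -0.0418. With the index of later over earlier exons as a covariate the log2 fold changes were -0.0818 for Clec4f, -0.0491 for Timd4, -0.20 for Vsig4, -0.38 for Emr1, -0.18 for Cd68, -0.0143 for Lyz2 and -0.12 for Csf1r. With the title number as a covariate they were -0.0637 for Clec4f, -0.28 for Timd4, -1.14 for Marco, -0.21 for Vsig4, -0.62 for Emr1, -0.29 for Cd68, -0.26 for Lyz2 and -0.30 for Csf1r. By last exon counts the responder minus non-responder median log2 ratio to Emr1 was 0.82 for Timd4, against 0.27 by gene counts, and 0.10 for Cd5l, against -0.24. The causes were not tested.

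Of all genes, 723 were called higher and 1025 lower, and of the macrophage list genes 1 and 15. DESeq2 called 1396 and 1661 of all genes, and 3 list genes higher. Limma-voom with quality weights called 1611 and 2012, and 3 list genes higher. Last exon counts gave 2 list genes higher, and dropping the low count filter gave 8 list genes lower. At a threshold of 0.1 the calls over all genes were 1372 and 1808. With the title number as a covariate they were 0 and 1, and 0 and 0 for list genes. With each library left out, 38 to 836 of all genes were called higher and 41 to 1158 lower, and 0 to 1 list genes higher and 1 to 15 lower, the lowest being without non-responder replicate 2. Among list genes that did not pass, the log2 fold change changed sign for C1qc (0.048 by limma-voom; -0.38 to 0.15 over libraries left out), Lgals9 (-0.0729 by last exon counts, -0.0056 by library size only, -0.30 with the title number; -0.0318 to 0.0962 over libraries left out) and Stab1 (-0.18 by last exon counts). Il18 and Il1a were -0.0798 and -0.0454 with the exon index, -0.0946 and -0.0614 with quality weights, and -0.24 and -0.12 with the title number, and ranged from -0.0445 to 0.35 and from -0.0133 to 0.37 over libraries left out. Csf1 and Emr4 were -0.0741 and -0.46 with the title number. No paired analysis was possible because the numbers in the titles are unique to each library and pair none across groups.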
